A study of Mus musculus with 26 samples.

Results

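Motor neuron spheroids that rested on a magnet-bearing silicone array that never moved (the static array, labelled Mechanical control) were compared with spheroids labelled Biochemical control, which belong to the biochemical part of the study. Of the 26 libraries of the series, 8 entered this comparison: static array replicates 1, 2 and 4, and control replicates 1, 2, 3, 5 and 6. Static array replicate 3 and control replicate 4 were set aside because fewer than 1000000 of their counts fell on protein-coding genes. Every group came from the mouse embryonic stem cell line HBG3, whose GFP reporter is driven by the promoter of HB9 (Mnx1). All were differentiated with retinoic acid and purmorphamine, received CNTF and GDNF from day 5, and were used as spheroids of about day 8. The labels do not say whether the biochemical controls sat on a plain fibrin gel or on another substrate. The labels give the genotype as heterozygous blastocysts for all of them. In the remaining groups the array was actuated at 4 Hz, 30 min each day (actuated array), or the spheroids received medium conditioned by muscle (labelled low and high intensity). Those groups entered only the shared estimate of spread, 1 check and the levels given for some of the genes that rose and some gene lists. Nothing in the labels says that replicates came from separate cultures, so p-values measure only the spread between these samples, which may be technical. Neither group received movement, and the question put to the data is which transcripts differ between 2 kinds of unstimulated spheroid. The substrate, the handling, the depth and any other step that separated the mechanical from the biochemical samples changed together between the groups and cannot be told apart.

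As background, motor neurons of the spinal cord are cholinergic: they take up choline, make acetylcholine with choline acetyltransferase (Chat) and load it into vesicles through Slc18a3. Cells that sense contact or tension can respond first through immediate early transcription factors and later through cytoskeletal genes and matrix genes. The libraries were made from fragmented total RNA, so unspliced nuclear RNA, long noncoding RNA and mitochondrial RNA are sampled together with mature messenger RNA.

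The spheroids carried motor neuron transcripts in both groups, with much glial RNA. Levels are given as CPM, the count of a gene scaled to the total of its library after TMM scaling. Mnx1 lay between 4.56 and 9.23 CPM on the static array and between 5.00 and 10.9 CPM in the controls. Slc18a3 lay between 49.0 and 56.8 CPM on the static array and between 47.0 and 78.1 CPM in the controls. Isl2 and Lhx3, 2 further motor neuron factors, were low in both groups, at no more than 1.74 and 2.23 CPM in any of the 8 libraries. Gfap, an intermediate filament of astrocytes, was present in every library at 1216 CPM or more. Hba-a1, a globin of red blood cells, had 0 counts in all 8 libraries, and Myog and Myod1, which define skeletal muscle, had 2 counts each over the static array libraries and 0 in the controls. Depth differed between the groups without overlap: total counts were 7724923 to 13162635 on the static array and 2273487 to 3771637 in the controls. A gene with 0 counts could therefore have been present at up to 0.228 to 0.388 CPM in a static array library and at up to 0.795 to 1.32 CPM in a control library. All 28 pairs of the 8 libraries differed by more than sampling noise (chi-square per degree of freedom 8.84 to 60.0), so no library was counted as a repeat deposit of another. This does not show that they came from separate cultures.

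Against this setting, 105 of 14730 genes differed between static array and control (0.713%; edgeR quasi-likelihood test, Benjamini-Hochberg adjusted p under 0.05). Of these, 44 rose (0.299% of the genes tested) and 61 fell (0.414%) on the static array. Genes that rose included the glucose transporter Slc2a1, the stress transcription factor Atf4, the guidance molecule Ntn1, the sterol enzyme Fdps and the immediate early factor Nr4a3. Mean Atf4 was 188 and 125 CPM in the low and high intensity groups, 182 on the static array and 109 in the controls. In the same order, Ntn1 stood at 68.8, 64.7, 84.7 and 32.3 CPM, and Slc2a1 at 67.5, 44.5, 78.5 and 33.1 CPM. Fdps stood at 89.3, 83.8, 133 and 74.7 CPM, and Nr4a3 at 14.9, 7.38, 25.9 and 5.16 CPM. These rises are against the biochemical control, and for Atf4 the low intensity mean was no lower than that of the static array. The same held for Nab2 (low intensity 21.7 against 19.6 CPM), Itprid2 (108 against 107) and Sdc4 (79.8 against 74.0). H2ac10 stood at 16.3 CPM in the high intensity group and 11.1 CPM on the static array. Control means of these genes were 3.95, 56.8, 40.6 and 1.32 CPM. Each other gene that rose and was named by rule had lower means in both intensity groups than on the static array. Genes that fell included the giant nuclear envelope proteins Syne1 and Syne2, the noncoding RNAs Malat1 and Kcnq1ot1, 4 mitochondrially encoded messenger RNAs and the choline transporter Slc5a7. Most changes were modest, and 44 genes reached a 2-fold change (20 higher, 24 lower). In 103 of the 105 genes the values of both groups did not overlap (42 higher, 61 lower). Over all genes, 4.52% lay fully higher and 3.62% fully lower on the static array. Protein-coding genes made up 36 of the genes that rose and 50 of those that fell, and 6 lncRNAs, 3 TEC genes (loci awaiting experimental evidence) and both mitochondrial rRNAs fell. The count rests on a shared estimate of spread. It was 42 with only the 8 libraries fitted, 64 with every library thinned to the depth of the shallowest and 2 (Nr4a3 and AY036118) with all 26 libraries. Without static array replicate 1, 2 or 4 it was 27, 26 or 18. Of 45 called genes that are named by rule, 13 were called without each of the fitted libraries in turn: Slc2a1, Atf4, Fdps, Ntn1, Nr4a3, Cyb5r3, AY036118, Syne1, Syne2, Atf7ip, Nopchap1, Zfhx4 and Kcnq1ot1. The other 32 lost their call without at least 1 library. Other settings ended calls among the 13 as well. With only the 8 compared libraries fitted, Ntn1 (adjusted p = 0.0590), Nr4a3 (0.0527) and Cyb5r3 (0.0524) were not called, and 17 of the 25 named genes that rose and 4 of the 20 that fell lost their calls. AY036118 was not called by limma voom with quality weights (adjusted p = 0.179). A length offset, which adjusts each library for annotated transcript length, ended the calls of 14 of the 25 and 8 of the 20.

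Of the genes of glucose and oxygen supply, 2 rose. Slc2a1, which encodes the glucose transporter GLUT1, stood at 67.6, 65.9 and 102 CPM in static array replicates 1, 2 and 4, and at 28.2, 38.5, 28.5, 32.3 and 38.3 CPM in control replicates 1, 2, 3, 5 and 6. Every static array value exceeded every control value, with replicate 4 the highest. The log2 fold change was 1.24 ± 0.18 (SE), with an edgeR adjusted p of 0.00164. P4ha1, a subunit of the enzyme that hydroxylates collagen prolines, rose by 1.00 ± 0.23 (adjusted p = 0.0394). Its static array libraries held 85.1, 92.3 and 145 CPM, and its controls held 72.2, 74.996, 30.4, 56.1 and 35.1 CPM. The gap between the groups was narrow for P4ha1, and without static array replicate 4 the difference was 0.73 and not called (adjusted p = 0.329), nor was it with the length offset (adjusted p = 0.0806). Of 39 glycolysis and hypoxia genes fitted (41 in the table), these 2 rose and none fell, and the median log2 fold change was 0.21 against -0.00 over all genes. The lactate exporter Slc16a3 (0.75, adjusted p = 0.103) and the oxygen sensor Egln1 (0.49, adjusted p = 0.123) did not pass the test, and neither did the phosphofructokinase Pfkp (-0.60, adjusted p = 0.228).

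Sterol synthesis and the stress response each had 1 gene that rose. Fdps makes farnesyl diphosphate, the branch point of sterol and isoprenoid synthesis. Its level was 134, 139.6 and 126 CPM on the static array and 74.5, 75.3, 55.8, 82.4 and 85.5 CPM in the controls. The groups were well apart, and the log2 fold change was 0.84 ± 0.14 (edgeR adjusted p = 0.00392). Of 24 sterol genes fitted (25 in the table), 23 had a positive difference, with a median of 0.32, but only Fdps passed. Hmgcs1 (0.47, adjusted p = 0.145) and Msmo1 (0.79, adjusted p = 0.112) are examples of those that did not. Atf4 is the transcription factor through which amino acid shortage and misfolded protein switch on synthesis and chaperone genes. It stood at 160.0, 202 and 183 CPM on the static array and at 112, 110.0, 95.8, 113 and 112 CPM in the controls. That is a log2 rise of 0.74 ± 0.12 (edgeR adjusted p = 0.00392), and the controls formed a tight band with replicate 3 below it. Among 34 genes of the unfolded protein and integrated stress list fitted, Atf4 alone rose and none fell. The median was 0.18, with 24 positive and 10 negative differences, and 7 members were higher and 0 lower at an unadjusted p under 0.05. Over all 14730 genes, 7319 differences were positive and 7411 negative, and 899 were higher and 951 lower at such a p. With the length offset the median of the list was 0.10.

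Other protein-coding genes named by size of evidence span several functions. Cyb5r3, a reductase that supplies electrons from NADH, rose by 0.77 ± 0.14, from 121 ± 20.8 CPM (SD, n = 5) in the controls to 206 ± 8.45 CPM (SD, n = 3). Psmd7, a subunit of the proteasome lid, rose by 0.54 ± 0.10, and Hdac5, a class II histone deacetylase, by 0.65 ± 0.13. Fabp5, a fatty acid carrier, rose by 0.70 ± 0.15. Sdc4, a heparan sulfate proteoglycan of focal adhesions, rose by 0.87 ± 0.18, from 40.6 ± 7.98 to 74.0 ± 9.93 CPM. Ptp4a3, a phosphatase, rose by 1.06 ± 0.22, and Itprid2 rose by 0.92 ± 0.17. Atp5o, a stalk subunit of ATP synthase, rose by 0.56 ± 0.12 and was the only one of 82 nuclear-encoded oxidative phosphorylation genes to pass. Each of these genes had fully separated groups and an edgeR adjusted p between 0.0054 for Cyb5r3 and 0.0216 for Fabp5 and Atp5o. All but Cyb5r3 lost the call without at least 1 static array library, with adjusted p up to 0.201 for Atp5o and 0.198 for Fabp5 without replicate 4. With the length offset Psmd7 (adjusted p = 0.153), Atp5o (0.299), Fabp5 (0.0548) and Sdc4 (0.0641) were not called.

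**Figure D1:**
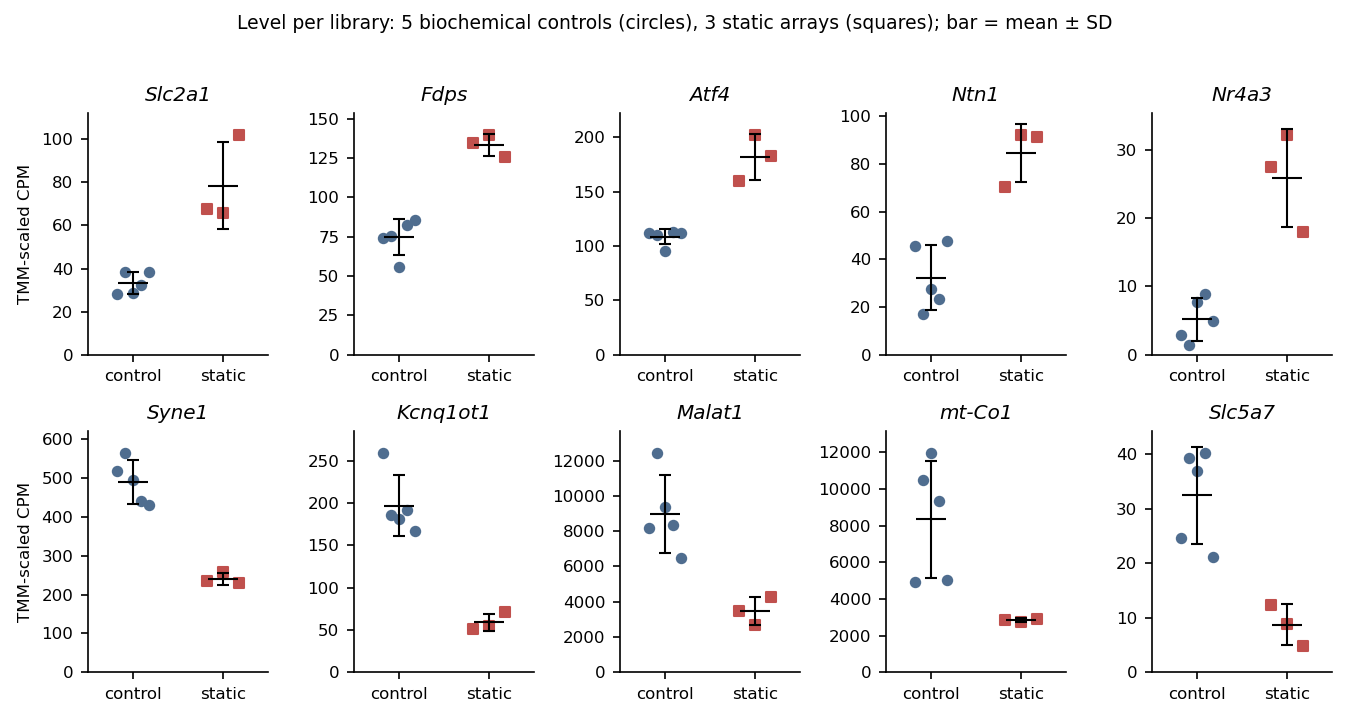
Levels of 10 genes in TMM-scaled CPM (y axes start at 0) for the 5 biochemical control libraries (circles) and the 3 static array libraries (squares), with the mean ± SD. In the upper panels (Slc2a1, Fdps, Atf4, Ntn1, Nr4a3) every static array library lies above every control, and in the lower panels (Syne1, Kcnq1ot1, Malat1, mt-Co1, Slc5a7) every one lies below.

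Among the immediate early genes, which are transcribed within minutes of calcium entry or growth factor signalling without new protein synthesis, Nr4a3 rose and no other passed. Nr4a3 is an orphan nuclear receptor. It had 27.6, 32.2 and 18.0 CPM on the static array against 2.88, 1.40, 7.69, 8.89 and 4.93 CPM in the controls. Every static array library lay above every control. The log2 fold change was 2.37 ± 0.41 (edgeR adjusted p = 0.00486, or 0.0527 with only the 8 libraries fitted). Nab2, a repressor that binds EGR family factors and is itself induced by them, rose by 2.33 ± 0.47 (adjusted p = 0.0159), with 25.6, 21.8 and 11.3 CPM against 1.44, 1.05, 5.38, 6.08 and 5.80 CPM. Nab2 was not called without static array replicate 1 (adjusted p = 0.0813) or 2 (adjusted p = 0.0839). For both genes replicate 4 was the lowest of the static array libraries, while for Fos and Egr1, classical genes of neuronal activity, it was the highest. Fos was at 29.6, 35.3 and 162 CPM on the static array and between 7.19 and 20.1 CPM in the controls, and it did not pass (2.28 ± 0.58, adjusted p = 0.0611). Egr1 was at 14.02, 10.5 and 199 CPM against 0.701 to 17.7 CPM, with overlapping groups (adjusted p = 0.151). Jun went the other way without passing (-0.42, adjusted p = 0.0739). Of 46 immediate early genes fitted (48 in the table), 31 had a positive difference and the median was 0.40. Without static array replicate 4 that median was 0.10, so the level of the list as a whole rests on that library. Npas4, a factor specific to neuronal activity, was between 0.298 and 1.47 CPM on the static array and between 0 and 5.80 CPM in the controls.

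TGACG, the core of the site bound by CREB and ATF factors, occurs before many immediate early genes. The 250 bases before the start are shown for Nr4a3, which rose, and for Areg, which fell, so that copies can be seen before genes of either direction. Both were picked with their motif counts known. They were read from RefSeq (GRCm38.p6, + strand, chr4:48045055-48045304 for Nr4a3 and chr5:91139349-91139598 for Areg), with the motif on either strand in capitals.
Nr4a3: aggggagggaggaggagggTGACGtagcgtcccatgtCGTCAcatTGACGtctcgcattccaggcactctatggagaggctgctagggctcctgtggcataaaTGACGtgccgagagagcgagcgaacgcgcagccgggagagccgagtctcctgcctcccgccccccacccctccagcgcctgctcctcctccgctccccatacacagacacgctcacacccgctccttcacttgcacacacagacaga
Areg: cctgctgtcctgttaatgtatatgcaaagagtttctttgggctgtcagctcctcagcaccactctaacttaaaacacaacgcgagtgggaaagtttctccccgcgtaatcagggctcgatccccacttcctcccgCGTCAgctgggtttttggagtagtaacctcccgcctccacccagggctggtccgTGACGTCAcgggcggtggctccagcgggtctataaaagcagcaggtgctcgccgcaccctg
In the Nr4a3 window TGACG occurred 3 times on the + strand and 1 time on the other strand (written CGTCA), and TGACGTCA was absent. In the Areg window it occurred 1 time on the + strand and 2 times on the other, where 1 copy on each strand overlaps to form the full palindrome TGACGTCA. At least 1 copy on either strand was present in 17.8% of 32851 promoter windows of the same length, at least 4 copies in 0.137% and TGACGTCA in 1.55%. Of the immediate early genes fitted, 34 had a promoter in the table, and 22 of them (64.7%) held TGACG in at least 1 window, against 19.8% of 27025 genes. A match of letters is a description and not a measured binding site.

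Proliferation genes lay higher on the static array than in the biochemical controls, although few passed the test singly. Hmgb2, a chromatin protein of dividing cells, stood at 164, 224 and 272 CPM on the static array and at 136, 118, 104, 110.0 and 111 CPM in the controls, a log2 rise of 0.92 ± 0.20 (edgeR adjusted p = 0.025). Without static array replicate 4 it was not called (0.76, adjusted p = 0.224), nor without static array replicate 2 or control replicate 3 or 5, nor with the length offset (adjusted p = 0.0622). It was the only one of 45 cell cycle and DNA replication genes to pass. Of these 45, 44 had a positive difference, 13 were fully higher, and the median was 0.68. For comparison, 7319 of all 14730 genes had a positive difference, 4.52% were fully higher and the median was -0.00. Top2a (1.07, adjusted p = 0.109), Bub1b (1.39, adjusted p = 0.114) and Bub1 (2.54, adjusted p = 0.107) did not pass. The summed level of the list was 1272, 1468 and 1844 CPM on the static array and 879 to 1106 CPM in the controls. The intensity groups reached at least as high, at 1054 to 2376 CPM (low) and 1229 to 3255 CPM (high).

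Histone genes that are transcribed in S phase were also higher. H1f4, a linker histone, rose by 1.19 ± 0.27 (edgeR adjusted p = 0.0378), with 74.3, 95.6 and 153 CPM against 40.2 to 53.9 CPM. H2ac6 rose by 1.65 ± 0.38 and H2ac10 by 3.05 ± 0.68. H2ac10 rests on low values, with 6.44, 13.3 and 13.6 CPM against 0 to 4.21 CPM, and one control replicate (2) held most of the control level. Without static array replicate 4 none of the 3 was called (adjusted p = 0.329 for H1f4 and H2ac6, 0.164 for H2ac10), and each also lost its call without other single libraries and with the length offset (adjusted p = 0.0691 to 0.0838). These 3 passed out of 61 replication-dependent histone genes fitted (66 in the table), none fell, and the median of the list was 0.89. The coding parts of these genes are nearly identical to those of other family members, so the split of reads between them is uncertain. The summed histone level was 994 to 1691 CPM on the static array and 605 to 895 CPM in the controls, highest of the 8 libraries again in static array replicate 4. In the low and high intensity groups it was 721 to 1659 CPM and 742 to 2211 CPM. Fewer cells of a type and less RNA per cell cannot be told apart in these bulk samples, here or in any result that follows.

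Glial markers were higher in sum as well. The 33 markers of astrocytes, radial glia and oligodendrocytes summed to 8378 to 9558 CPM on the static array and to 6226 to 7767 CPM in the controls, without overlap. The low intensity group spanned both ranges, at 6819 to 10632 CPM, and the high intensity group lay at 6853 to 7627 CPM. None of the 31 markers fitted passed the test, 26 had a positive and 5 a negative difference, and the median was 0.42. Closest to the threshold were Id3 (1.94, adjusted p = 0.0528), the oligodendrocyte lineage factor Sox10 (1.86, adjusted p = 0.0579), the myelin gene Mag (3.06, adjusted p = 0.0611) and the progenitor receptor Pdgfra (1.102, adjusted p = 0.0636). Sox10 was at 25.9, 35.0 and 39.0 CPM on the static array and between 5.18 and 12.8 CPM in the controls. Gfap lay between 2042 and 2625 CPM against 1216 and 1837 CPM. Markers of mesenchyme and fibroblasts overlapped, with sums of 1847 to 3222 CPM on the static array and 1784 to 2953 CPM in the controls, and 0 of 27 passed. Endothelial, blood and microglial markers summed to 40 CPM or less in every one of the 8 libraries. The part of the glial difference in the other results was not tested.

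Motor neuron genes showed 2 decreases within lists that otherwise stayed near the median of all genes. Slc5a7, the high-affinity transporter that brings choline back into cholinergic terminals, stood at 12.4, 8.93 and 4.93 CPM on the static array. Its controls stood at 24.7, 39.3, 36.9, 40.2 and 21.2 CPM, so the groups were clearly apart. The log2 fold change was -1.88 ± 0.31 (edgeR adjusted p = 0.00392), a 3.67-fold lower level. Without static array replicate 4, where it was lowest, the difference was -1.59 and not called (adjusted p = 0.0562). No other gene of the cholinergic list changed among 12 fitted (14 in the table), and the list had a median of 0.00. Chat had a difference of -0.88 ± 0.36 (adjusted p = 0.284), and the vesicular transporter Slc18a3 of -0.14 ± 0.17 (adjusted p = 0.807). Slit2, a repellent guidance protein that motor neurons secrete, fell by 0.88 on the log2 scale (SE 0.19, adjusted p = 0.0333), with 64.6, 50.6 and 56.5 CPM against 78.2 to 134 CPM. Slit2 was not called without any 1 of the static array libraries (adjusted p up to 0.217) or without control replicate 1 or 5, nor with the length offset (adjusted p = 0.0727). Of 17 motor neuron identity genes fitted (18 in the table), only Slit2 changed. Isl1 was lower without passing (-1.51 ± 0.58, adjusted p = 0.246), and Mnx1 differed by -0.29 ± 0.50 (adjusted p = 0.865). The summed identity list lay between 409 and 467 CPM on the static array and between 468 and 626 CPM in the controls, while the summed glial list lay in the opposite order. The gap in the identity sum was very narrow, at 466.6 CPM in static array replicate 1 and 468.2 CPM in control replicate 2. Slit2 is part of that sum, at 64.6 and 78.2 CPM in these libraries, and the median difference of the list was -0.11.

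Guidance, cytoskeleton and excitability genes gave few changes. Ntn1, the netrin that attracts or repels axons depending on the receptor, rose by 1.37 ± 0.23 (edgeR adjusted p = 0.00392). Its levels were 70.6, 92.1 and 91.3 CPM on the static array and 45.7, 17.2, 27.7, 23.4 and 47.5 CPM in the controls, with a wide spread among the controls and no overlap. Its repulsive receptor Unc5c had a difference of -0.79 ± 0.20 that did not pass (adjusted p = 0.0589). With only the 8 libraries fitted, Ntn1 was not called (adjusted p = 0.0590). Of 46 neurotrophic and guidance genes fitted, a list that does not hold Slit2, Ntn1 rose and none fell. Their differences were positive for 14 and negative for 32, and 2 were higher and 10 lower at an unadjusted p under 0.05. Over all 14730 genes, 7319 differences were positive and 7411 negative, and 899 were higher and 951 lower at such a p. The list had a median transcript length of 5871.5 bases, against 3451.5 over all genes. Its median difference was -0.12, and -0.08 with the length offset. Tuba1a, the main alpha-tubulin of growing neurons, rose by 0.72 ± 0.17 (adjusted p = 0.0444) and Nsg2, an endosomal protein of neurons, by 0.55 ± 0.13 (adjusted p = 0.0447). Both lay close to the threshold and lost the call without many of the single libraries (adjusted p up to 0.193 for Tuba1a and 0.245 for Nsg2). Tubulin genes share long stretches of sequence, so Tuba1a and Tubb4b (0.70 ± 0.15, adjusted p = 0.025) are uncertain in their split of reads. Tuba1a and Nsg2 were the 2 called of 33 neuronal cytoskeleton and growth cone genes, with a list median of 0.10. Cnn3, a calponin that binds actin, rose by 0.53 ± 0.12 (adjusted p = 0.0374) and was the only one of 37 contractile and actin-binding genes to pass; it lost the call without any static array library (adjusted p up to 0.164). With the length offset Tuba1a, Nsg2, Tubb4b and Cnn3 were not called (adjusted p = 0.127 to 0.162). Areg, an EGF receptor ligand, fell by 1.62 on the log2 scale (SE 0.30, adjusted p = 0.00835), with 14.9, 17.3 and 13.4 CPM against 37.4 to 58.0 CPM. Without static array replicate 1 or 4 its adjusted p was 0.0594 or 0.0873.

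No gene passed among 28 sodium and calcium channel genes, 41 potassium channel genes, 48 transmitter receptor genes, 39 synaptic vesicle genes, 14 mechanically gated channel genes, 24 YAP and TAZ targets, 45 matrix and proteolysis genes, 26 heat shock genes, 20 p53 genes, 14 interferon genes, 24 Hox genes, 21 ventral progenitor genes, 16 spinal interneuron genes or 82 cytosolic ribosomal protein genes. At an unadjusted p under 0.05 by the same edgeR test, 6 of the sodium and calcium channel genes were lower and none higher, and 14 of the ribosomal protein genes were higher and none lower. Over all 14730 genes, 1850 had such a p, 899 of them higher and 951 lower. Median transcript length was 7681 bases in the sodium and calcium channel list, 1076.5 in the ribosomal protein list and 3451.5 over all genes. With the length offset the medians of these 2 lists moved from -0.13 to -0.05 and from 0.17 to -0.03. The median of all genes moved from -0.00 to -0.05. The absence of calls in a list does not show that its genes were equal.

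**Figure D2:**
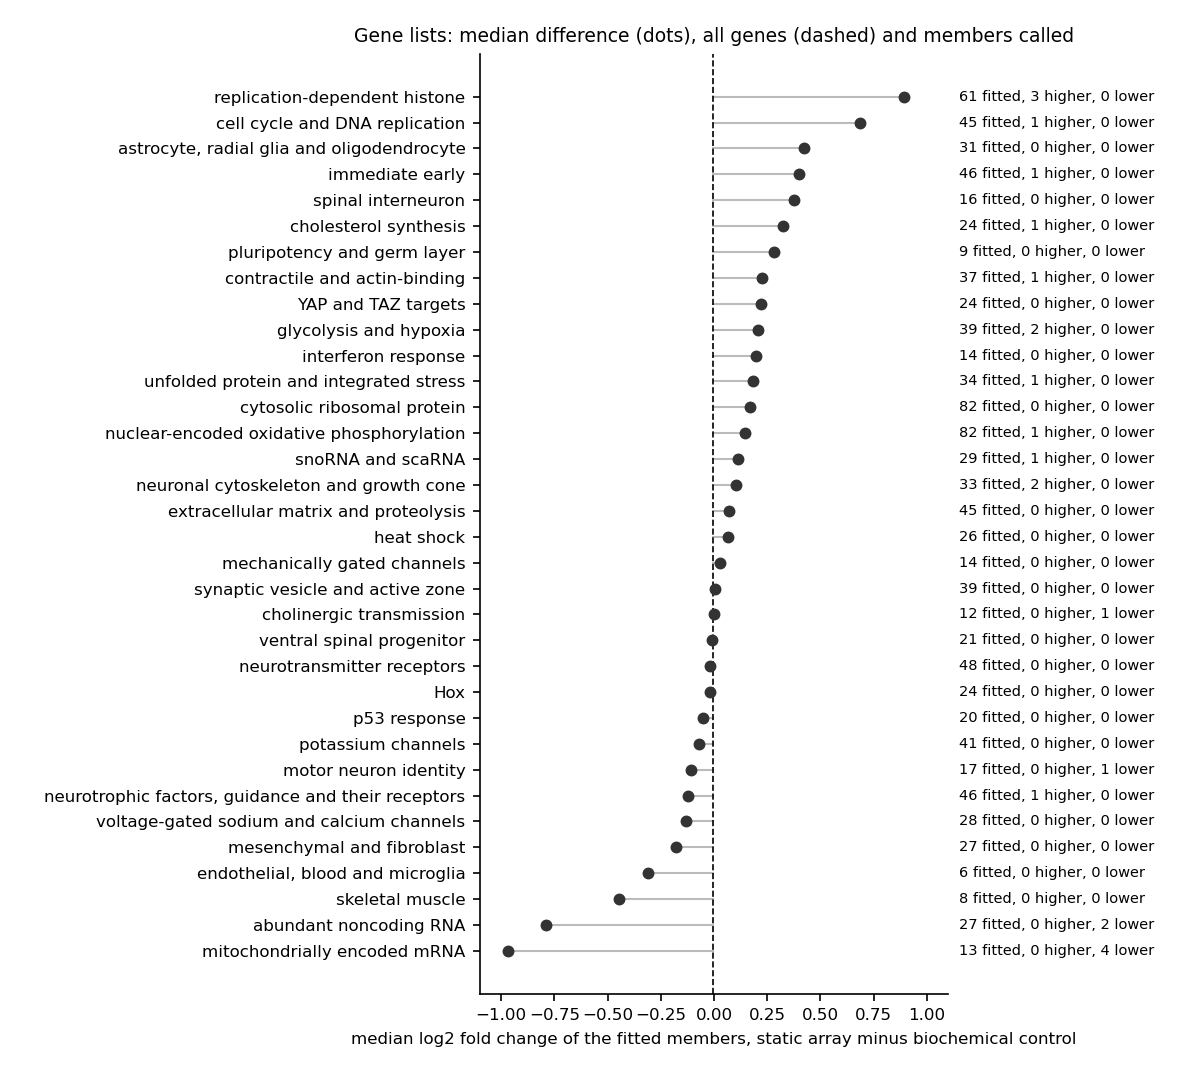
Median log2 fold change (x axis) of the fitted members of each of 34 gene lists, static array minus biochemical control, beside the median of all genes (dashed line), with the number fitted and called at the right. Histone and cell cycle lists lie highest (0.89 and 0.68), and mitochondrially encoded and abundant noncoding RNA lowest (-0.97 and -0.79).

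The genes that fell were mostly very long. Syne1, a giant spectrin-repeat protein that ties the nuclear envelope to the cytoskeleton, stood at 233, 258 and 230.4 CPM on the static array against 517, 563, 495, 441 and 429 CPM in the controls. The log2 fold change was -1.02 ± 0.14 (edgeR adjusted p = 0.00164), with no static array library near the controls. Its relative Syne2 fell by 0.77 on the log2 scale (SE 0.13). Atf7ip, a chromatin factor that sustains the H3K9 methyltransferase SETDB1, fell by 0.89 (SE 0.13), from 271 ± 35.3 CPM (SD, n = 5) to 146 ± 15.3 CPM (SD, n = 3). Nopchap1 fell by 1.14 (SE 0.17), the homeodomain gene Zfhx4 by 0.85 (SE 0.14), Prune2 by 0.90 (SE 0.15) and the H3K4 methyltransferase Kmt2c by 0.65 (SE 0.11). Xrn1, the exonuclease that degrades decapped RNA, fell by 0.91 (SE 0.17), Zbtb37 by 0.79 (SE 0.15), Gm14440 by 1.47 (SE 0.28) and Filip1, an actin regulator, by 1.84 (SE 0.32). Gm14440 and Filip1 were not among the very long genes, with longest annotated transcripts of 3382 and 4640 bases. That of Nopchap1, 123179 bases, covers nearly all of its gene (128285 bases), so its length rests on 1 annotated transcript. Kmt2c, Xrn1, Gm14440, Zbtb37, Filip1 and Prune2 lost their calls without static array replicate 4, with adjusted p of 0.16 for Zbtb37 and 0.0562 for Prune2. Further called genes, picked here after their values were seen, were the cytoskeletal linkers Dst (-0.52) and Macf1 (-0.41), the dynein heavy chain Dync1h1 (-0.55) and the ankyrin Ank3 (-0.58), which builds the axon initial segment.

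Transcript length was read from the longest GENCODE M21 transcript of each gene. Protein-coding genes that fell had a median length of 12152 bases, and 37 of 50 exceeded 8000 bases. Those that rose had a median of 2514.5 bases, and 0 of 36 exceeded 8000. Among all protein-coding genes fitted the median was 3585 bases and 6.81% exceeded 8000. Across 7439 protein-coding genes of at least 20 CPM (mean of the 2 group means), the median log2 fold change went down from 0.15 in the shortest decile of length to -0.22 in the longest. Spearman's rho between length and log2 fold change was -0.37 over these genes, which share libraries and are not independent. Genomic span gave a rho of -0.24 and GC content one of 0.15. The share of protein-coding counts on transcripts over 8000 bases was 14.8% ± 0.718 (SD, n = 3) on the static array and 17.4% ± 0.36 (SD, n = 5) in the controls (exact permutation test, two-sided, p = 0.0357, the smallest these sample numbers allow; adjusted over 12 measures 0.0476). With a length offset fitted in each library, 40 genes were called, 33 of them among the 105. Among the named genes that fell, Syne1 (-0.55, adjusted p = 0.112), Syne2, Nopchap1, Kmt2c, Xrn1, Zbtb37, Kcnq1ot1 and Slit2 were then no longer called, while Atf7ip (-0.77), Zfhx4 (-0.59), Prune2 (-0.66), Slc5a7 (-1.88), Areg (-1.82) and 7 others were. Among those that rose, P4ha1, Fabp5, Psmd7, Atp5o, Sdc4, Hmgb2, H1f4, H2ac6, H2ac10, Tuba1a, Tubb4b, Nsg2, Cnn3 and Snord15b were no longer called. Slc2a1 (1.16), Nr4a3 (2.40), Ntn1 (1.42), Fdps (0.75), Atf4 (0.60), Nab2 (2.23) and 5 others were still called. What part RNA quality has in these differences was not tested.

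**Figure D3:**
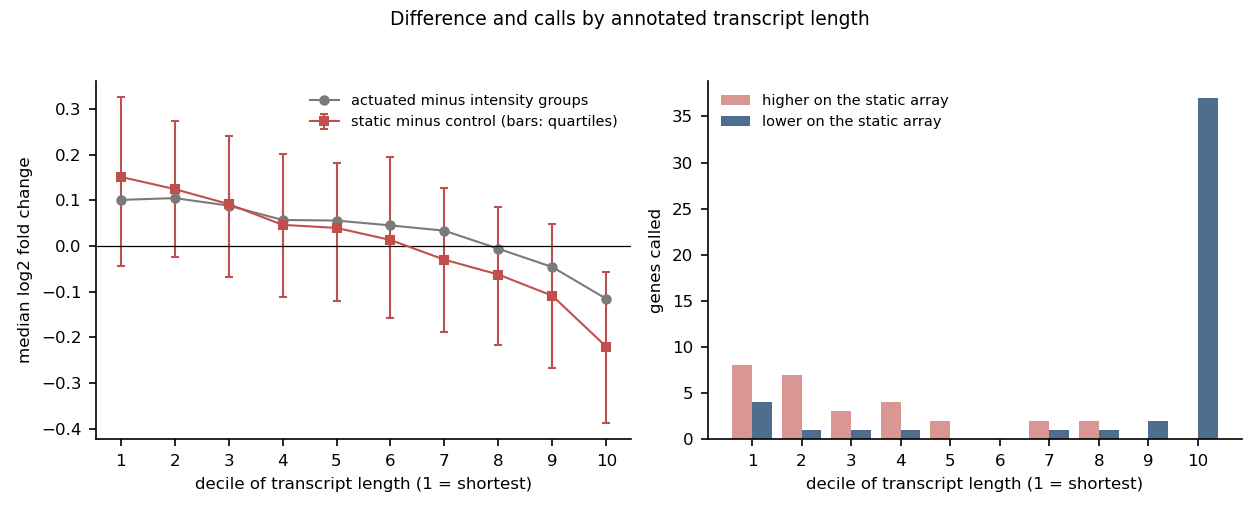
Left, the median log2 fold change per decile of annotated transcript length for static array minus control (squares, bars are quartiles) and for actuated array minus the intensity groups (circles). Right, the number of genes called per decile, where 37 of the genes that fell lie in the longest decile and none of those that rose. Both panels hold only protein-coding genes of at least 20 CPM, so called genes outside that set are not shown.

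Long noncoding RNAs were among the decreases, with 6 that fell and 0 that rose. Malat1, an abundant RNA of nuclear speckles, stood at 3482, 2668 and 4286 CPM on the static array against 8176, 12420.3, 9391, 8373 and 6489 CPM in the controls, a log2 change of -1.37 ± 0.28 (edgeR adjusted p = 0.0167). Malat1 was not called without any 1 of the static array libraries (adjusted p up to 0.155). Kcnq1ot1, the RNA that silences an imprinted cluster in cis, stood at 51.2, 54.8 and 70.9 CPM against 259, 186, 181, 191 and 167 CPM, a change of -1.74 ± 0.27 (adjusted p = 0.00276). In both genes the groups were separated by a wide gap. Kcnq1ot1 is antisense to Kcnq1, and whether the counting used strand is not given in the sources used here. These 2 were called among 27 abundant noncoding RNAs fitted (35 in the table), none rose, and the median was -0.79. Meg3 (-1.83, adjusted p = 0.177) and Gas5 (-0.79, adjusted p = 0.109) did not pass, and H19 had a positive difference (1.13, adjusted p = 0.244). Snord15b, a small nucleolar RNA that lies within a host gene, rose by 2.30 ± 0.48 (adjusted p = 0.0216) and was not called without any 1 static array library (adjusted p up to 0.116), nor with the length offset (adjusted p = 0.0872). Its counts may include reads of the host.

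Mir100hg and Mir99ahg, 2 of the 6 lncRNAs that fell, are hosts of related microRNA clusters, and they were picked after their values were seen. Mir100hg was at 35.8, 35.0 and 28.6 CPM on the static array against 70.7, 83.8, 65.4, 83.3 and 66.1 CPM (log2 -1.15 ± 0.23, edgeR adjusted p = 0.0159). Mir99ahg was at 11.1, 12.4 and 13.1 CPM against 59.5, 37.1, 35.4, 16.8 and 32.2 CPM (log2 -1.58 ± 0.37, adjusted p = 0.0406). Both pairs of groups were separated, with Mir99ahg variable among the controls. The 5' arms of the microRNAs inside these genes are shown to compare their seeds, bases 2 to 8, given in capitals (RefSeq, GRCm38.p6).
miR-100-5p, in Mir100hg: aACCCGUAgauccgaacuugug
miR-99a-5p, in Mir99ahg: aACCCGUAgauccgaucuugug
miR-125b-5p, in both hosts: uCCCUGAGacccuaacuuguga
let-7c-5p, in Mir99ahg: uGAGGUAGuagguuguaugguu
miR-100-5p and miR-99a-5p share the seed ACCCGUA. miR-125b-5p has the same mature sequence in both hosts, where it comes from Mir125b-1 on chromosome 9 and from Mir125b-2 on chromosome 16. The microRNA genes themselves had 0 counts in all 8 libraries, so the host values say nothing of the level of the mature microRNAs.

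All 3 TEC genes that fell, Gm42971, Gm42972 and Gm42973, lie within Ank2 on its own strand, as GENCODE M21 places them on GRCm38 chromosome 3 (Ank2, 126921612 to 127499350). They are outside the naming rule and were picked after their values were seen. Gm42972 had 1.81, 1.41 and 0.986 CPM on the static array against 14.1, 20.3, 15.8, 17.8 and 9.85 CPM in the controls (log2 -3.44 ± 0.53, edgeR adjusted p = 0.00276). These were among the strongest decreases, and the groups were far apart. Counts on such loci cannot be told apart from unspliced Ank2 RNA. TEC genes as a class took 0.0823% ± 0.0084 (SD, n = 3) of counts on the static array and 0.177% ± 0.0346 (SD, n = 5) in the controls, and lncRNAs took 1.27% ± 0.0849 and 1.94% ± 0.154 (both exact permutation test, two-sided, p = 0.0357, adjusted 0.0476).

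Both rRNAs and 4 messenger RNAs of the mitochondrial genome fell. The rRNA mt-Rnr2 stood at 45058, 44233 and 45652 CPM on the static array and between 79301 and 115910.0 CPM in the controls. mt-Co1, a subunit of cytochrome oxidase, stood at 2874, 2755 and 2923 CPM against 4950.4, 10465, 11946, 9319 and 5026 CPM (log2 -1.55 ± 0.29, edgeR adjusted p = 0.00906). Static array libraries were almost equal, whereas control replicates 1 and 6 had lower values than the other controls. mt-Cytb (-1.44 ± 0.29), mt-Nd4 (-1.23 ± 0.25) and mt-Nd5 (-1.27 ± 0.30) also fell, which makes 4 of 13 messenger RNAs lower and none higher, with a median of -0.97. mt-Co3 had a difference of the opposite sign that did not pass (2.58, adjusted p = 0.392). Each of the 4 lost its call when any 1 static array library was left out, with adjusted p up to 0.0817 for mt-Co1 and 0.217 for mt-Nd5, while the differences stayed at -1.19 or beyond. Mitochondrial genes took 7.71% ± 0.377 (SD, n = 3) of counts on the static array and 15.0% ± 2.53 (SD, n = 5) in the controls (exact permutation test, two-sided, p = 0.0357, adjusted 0.0476). The 10 most abundant genes together took 13.3% ± 1.22 and 23.0% ± 2.15 of counts (the same p). rRNA percentages overlapped, with 1.43% ± 0.481 and 1.33% ± 0.623 (exact permutation test, p = 0.786). The number of genes with a count at a common depth also overlapped, at 18350.0 ± 709 and 17538 ± 2909 (exact permutation test, p = 0.643).

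**Figure D4:**
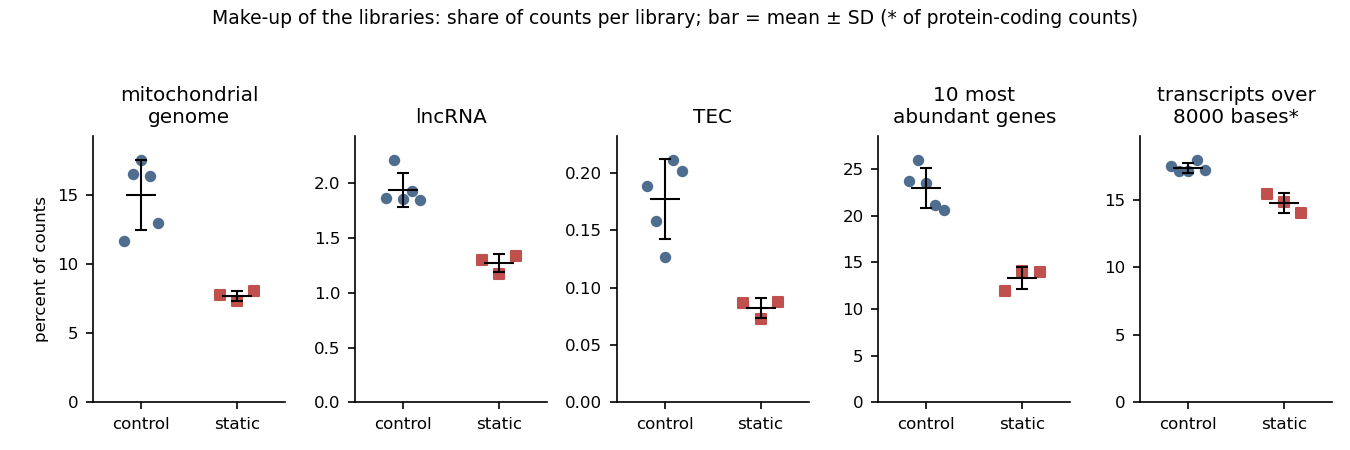
Percent of counts (y axes start at 0) per library taken by the mitochondrial genome, lncRNA, TEC genes, the 10 most abundant genes and, among protein-coding counts, transcripts over 8000 bases, for 5 controls (circles) and 3 static array libraries (squares), with the mean ± SD. The groups do not overlap in any of the 5 panels.

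A few genes had far higher levels on the static array. AY036118 stood at 135, 74.8 and 201 CPM on the static array and at 9.49, 0, 0.385, 11.7 and 15.1 CPM in the controls, a log2 change of 4.19 ± 0.74 (edgeR adjusted p = 0.00535). Its static array values varied by more than 2-fold but stayed well above the controls. Gm20605 and the pseudogene Hsp25-ps1, picked after their values were seen, had 0 counts in all 5 controls. Set against a floor of 3 counts over the control group, their pooled levels were at least 20.3-fold and at least 33.9-fold higher on the static array. Hsp25-ps1 is a copy of a heat shock gene, and its reads may belong to the parent.

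A second array comparison, which shared no library with the first, was used to see which of these differences recurred. The actuated array (4 libraries) was set against the mean of the low and high intensity groups (9 libraries) in the same fit. The actuated libraries were also the deeper ones there. They had received movement, and the intensity groups muscle-conditioned medium, so the 2 comparisons are not alike in treatment. In that comparison 0.944% of genes rose and 0.781% fell. Of the 44 genes that rose on the static array, 15 (34.1%) also rose there, which is 10.8% of the 139 that did. Of the 61 that fell, 25 (41.0%) also fell, which is 21.7% of 115, and 0 genes were called in opposite directions. Differences had the same sign for 40 of the 44 and 59 of the 61, where 48.0% of all genes were positive and 52.0% negative. Slc2a1 (0.80 ± 0.14 there, edgeR adjusted p = 0.00593), Fdps (0.61), Fabp5 (0.83), Hmgb2 (0.63), Syne1 (-0.55), Malat1 (-1.45), Kcnq1ot1 (-1.50) and Mir100hg (-1.07) were called in both. Hmgb2 was called in both, but the cell cycle list that holds it had a median of 0.68 in the first comparison and of -0.38 in the second, and the histone list had medians of 0.89 and 0.00. Slc5a7 (-0.56, adjusted p = 0.258), Ntn1 (0.33, adjusted p = 0.397), Nab2 (0.27, adjusted p = 0.788), Nr4a3 (1.12, adjusted p = 0.0626) and the mitochondrial messenger RNAs were called in the first comparison and not in the second. The difference of the 2 comparisons was tested in the same edgeR fit and passed for 0 of 14730 genes (smallest adjusted p 0.336). No gene was thus shown to differ between them, which does not show that the 2 were alike. At an unadjusted p under 0.05 were 915 of all genes and 47 of the 105 called in the first comparison. Those 105 were chosen by their difference in the first comparison, which also enters this test. The length trend was present in both, with a rho of -0.24 and medians from 0.10 to -0.12 across deciles in the second.

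**Figure D5:**
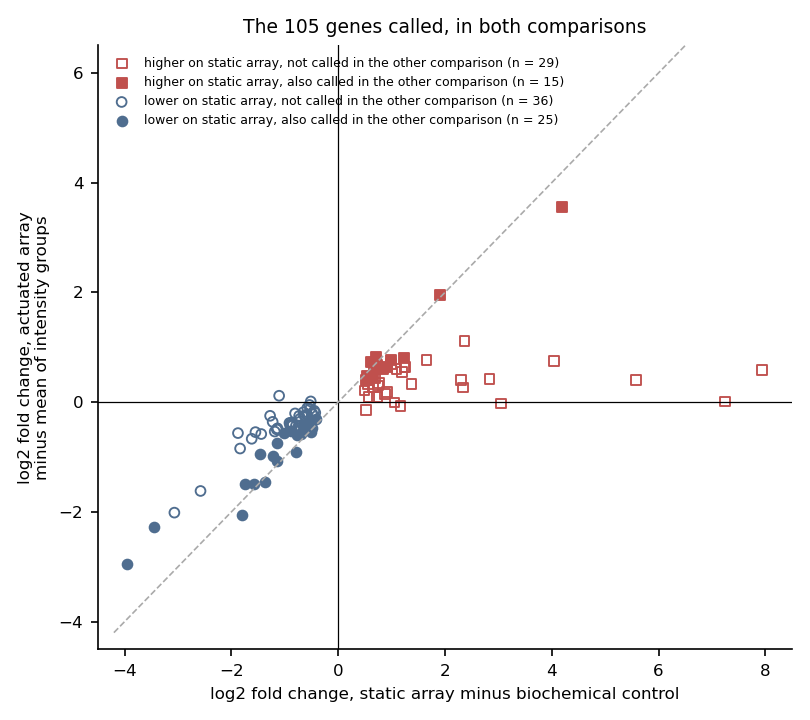
Log2 fold changes of the 105 genes called, static array minus control (x axis) against actuated array minus the mean of the intensity groups (y axis); the dashed line marks equal values. Filled symbols are the 15 genes that rose and the 25 that fell in both comparisons, and most open symbols lie closer to 0 on the y axis than on the x axis.

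The libraries that were set aside did not follow their groups closely. Scaled with all 26 libraries, static array replicate 3 lay above the log-scale midpoint of the group means for 21 of the 44 genes that rose and below it for 32 of the 61 that fell. Control replicate 4 lay below the midpoint for 28 of the 44 and above it for 29 of the 61. In control replicate 4, 75.7% of counts fell on rRNA genes, and static array replicate 3 held 613344 counts in all. For Nr4a3, replicate 3 of the static array stood at 51.5 CPM and control replicate 4 at 0, in the same order as the groups. For Syne1 both stood near the level of the static array, at 190.4 and 230.0 CPM, and for Kcnq1ot1 replicate 3 of the static array stood at 389 CPM, above every control.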

How the data were processed

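The authors deposited expected counts, written as whole numbers, and TPM values for 56941 mouse genes in 26 libraries; the deposited TPM values served only as an alternative. Per the submitters' processing notes, BWA 0.7.12-r1039, bedtools 2.25.0, STAR and Salmon and the builds mm10, hg19 and GRCm39 were used, with no role given, and whether strand was counted is not given in the sources used here. Per the labels' protocols, 4 ng of RNA per sample (full volume for the 8 samples of lowest concentration, not identified) was fragmented for 4 min, amplified for 5 and 15 cycles, cleared of rRNA fragments and read as 50-base pairs. No molecular identifiers are named, so limits cover counting error only.

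Counts were rounded and fitted with edgeR 4.0.16 (R 4.3.3; filterByExpr, TMM, quasi-likelihood F-test, Benjamini-Hochberg adjustment at 0.05) over the 21 libraries with at least 1000000 protein-coding counts, with 1 coefficient per group (14730 genes). The SE of each log2 fold change was its size divided by the square root of F. Lengths were found for 98.7% of genes (GENCODE M21). Library composition was compared by exact permutation over 8 libraries (SciPy). Named genes were the 15 of smallest p in each direction (protein-coding or lncRNA, at least 5 CPM in the higher group), every called member of 34 gene lists, 4 motor neuron checks, Nr4a3 and AY036118. The comparison, the members and the lists were chosen with earlier results of these data known. Alternatives covered scaling, filters, DESeq2 1.42.0, limma 3.58.1, libraries fitted, replicate block, thinning, TPM, thresholds and leaving out libraries; offsets for length and GC, thinning of the 8 libraries alone and the difference of the 2 comparisons were chosen after seeing the data.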

Additional observations from a re-analysis of the deposited data

Results flagged for a closer look

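The 5 biochemical control libraries were examined as a group for 61 named genes and composition measures. In 4 of these, 1 library was far from the others relative to the range of the group, and chance alone gives about 1 in 20. The static array libraries were not examined in this way. Kcnq1ot1 was at 258.8 CPM in biochemical control replicate 1, while the other controls lay between 167 and 191 CPM. Atf4 was at 95.8 CPM in biochemical control replicate 3, below the 110.0 to 113 CPM of the others. H2ac10 was at 4.21 CPM in biochemical control replicate 2, against 0 to 1.16 CPM. The lncRNA share of biochemical control replicate 2 was 2.21% of counts, against 1.85% to 1.92% in the others. In all 4 cases the static array libraries stayed on 1 side of every control.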

How the results depend on the processing

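For static array against biochemical control (105 genes), the count was 459 with no low-count filter, 381 by the DESeq2 Wald test (all 105 among them), 42 with only the 8 libraries compared, 2 with all 26 libraries, 64 with libraries thinned (53 for the 8 alone), 1091 on log2(TPM + 1) and 1145 on log2(TPM + 0.1), 40 with a length offset, 33 with a length and GC offset, and 27 or 234 at adjusted p thresholds of 0.01 or 0.10. On the TPM scales the median of all genes was 0.50 and 0.62, and 1087 and 1140 of the calls were higher; the cause was not tested. The split of 44 higher and 61 lower was 63 and 36 with at least 1 CPM in 3 libraries, 54 and 45 without mitochondrial and rRNA genes, and 311 and 148 with no filter. Leaving out 1 library gave 18 to 141 genes.

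For actuated array against intensity groups (254 genes), the count was 865 with no filter, 724 by DESeq2, 1200 by limma voom, 6 with all 26 libraries, 2 and 1 on the TPM scales, 165 and 134 with the offsets, and 36 or 658 at thresholds of 0.01 or 0.10. Leaving out 1 library gave 19 to 445 genes.

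With the replicate number as a block (replicate block), 36 genes were called for static array against biochemical control. The groups compared share only the numbers 1 and 2, whose deviations correlated at 0.0426 and 0.00139, and the labels do not say what a number marks, so it was not taken as a pairing. Nr4a3, Cyb5r3 and AY036118 were not called with the block (adjusted p = 0.0632, 0.0647 and 0.0863).

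With all static array and control libraries, the lncRNA difference was 0.869 and the TEC difference 0.4998 percentage points, opposite in sign to the values without static array replicate 3 and control replicate 4. Leave-one-out of the composition measures cannot reach p under 0.05 with so few libraries. In 1702 alternative settings of the 45 called genes named, none had the opposite sign and 344 lost the call. Mnx1 and Slc18a3, which were not called, took either sign. Fitting only the 8 libraries was not run for actuated array against intensity groups, since it would hold none of its libraries. Depth limits low genes most in the controls, where 3 counts are 0.795 to 1.32 CPM.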
